A study of Homo sapiens with 9 samples.

Results

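GATA3, TCF7, LEF1, BCL11B, RUNX1, RUNX3, IKZF1, MYB, TBX21 and ZNF683, a set of transcription factors of the T cell lineage, were followed in ALL-SIL cells after knockdown of PHF6. ALL-SIL is an established human T cell acute lymphoblastic leukemia (T-ALL) line, and the data therefore describe 1 cell line. The cells of all 3 groups were electroporated: one group received control siRNA, another PHF6 siRNA1 and the remaining one PHF6 siRNA2, and RNA was taken at 96 h according to most sample labels and the study's methods, while a free-text description gives 72 h. Each group had 3 samples with replicate numbers 1 to 3, each on its own one-colour Agilent array. The study's methods call the samples independent, but neither they nor the labels say whether replicates came from separate cultures or electroporations, so that p-values measure the spread between these samples. The 10 genes were represented by 17 array probes, of 57176 probes and 19721 named genes on the array. Every probe whose transcript identifier maps to one of the 10 symbols was kept. The genes were selected on earlier results of the same siRNA arrays against control, so their values against control are given as a description.

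GATA3, TCF7 (TCF-1) and BCL11B act downstream of Notch signaling and commit thymic progenitors to the T cell fate, and LEF1 shares the DNA-binding domain of TCF7. RUNX1 and RUNX3 bind DNA together with CBFB and control CD4 and CD8 expression in thymocytes, IKZF1 (Ikaros) restrains Notch target genes, and MYB keeps precursor cells dividing. TBX21 (T-bet) and ZNF683 (Hobit) direct the cytotoxic and tissue-resident programs of mature T and NK cells. Several of these genes are mutated or misexpressed in T-ALL. PHF6, a chromatin-associated protein that is often inactivated in T-ALL, is the target of both siRNAs.

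PHF6 itself was lower on all 6 siRNA arrays than on any control array. On a normalized log2 scale its probe A_23_P171385 measured 11.03 ± 0.16 (SD, n = 3) in control samples. It measured 9.40 ± 0.28 (SD, n = 3) after siRNA1 and 9.20 ± 0.07 (SD, n = 3) after siRNA2. The difference of -1.73 for both siRNAs (standard error 0.09, adjusted p = 8.3e-05 from limma with the replicate number as a block) corresponds to a 3.32-fold lower level. All 10 markers of T-ALL cells, among them CD3D, CD7 and the TLX1 homeobox gene, were well above background on all 9 arrays. Of the markers of other blood cells, EBF1 and CD22 (B cells), S100A8, S100A9 and CD33 (myeloid cells), FCGR3A, NCAM1 and KLRF1 (NK cells) and HBB (erythroid cells) were well above background on none. Others were well above background on all 9 arrays, namely the B cell markers CD79A and CD79B, and 2 of 7 myeloid, 3 of 6 NK cell and 4 of 6 erythroid markers on the array. Between 29694 and 33751 probes per array were well above background and no spot was saturated. Replicates 1 and 2 of every group lay on one slide and replicate 3 on the other. Control, siRNA1 and siRNA2 samples each kept one column position on every slide, so position and group cannot be told apart. In RNA from whole cultures, fewer cells that express a gene and less RNA per cell cannot be told apart either.

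All 17 probes of the 10 factors were well above background on 9 of 9 arrays. Samples with the same replicate number deviated together from their group means, so each siRNA array is described against the control array of its own number and the fit has the replicate number as a block. At most of the probes the values spread more between replicate numbers than the siRNA groups differed from control. The means of the 3 replicate numbers spanned 0.29 to 0.97 on the log2 scale, with a median of 0.57, compared with 0.32 over all 33595 probes tested. For 14 of the 17 probes this range was larger than the difference between both siRNAs and control. The exceptions were ZNF683 and 2 probes of RUNX1. Over all probes tested the median range, 0.32, also exceeded the median size of the difference, 0.12, so this is not particular to the factors. The share of all probes was not counted, and a range over 3 means is not the same measure as an averaged difference.

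**Figure D1:**
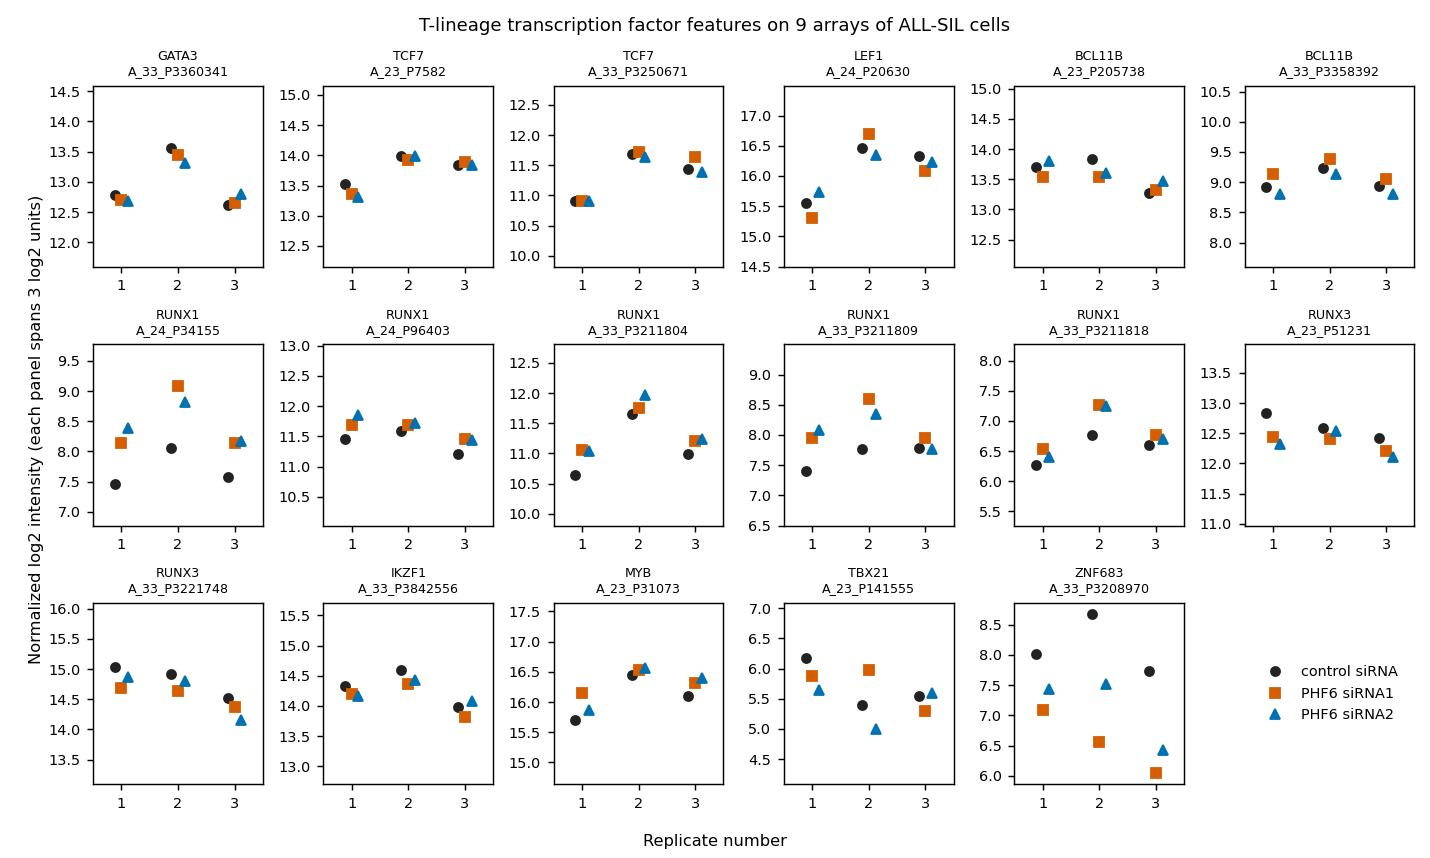
Normalized log2 intensity of each of the 17 probes (vertical axis, every panel spanning 3 log2 units) by replicate number (horizontal axis), with 1 point per array for control siRNA, PHF6 siRNA1 and PHF6 siRNA2. Control points lie apart from the siRNA points for ZNF683 (above) and for RUNX1 A_24_P34155 (below at each replicate number), while most other panels vary more between replicate numbers than between groups.

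The factors did not move together. With both siRNAs 8 of the 17 probes were higher and 9 lower than control, with a median log2 difference of -0.05 (all probes tested: -0.0007). The median size of the difference without its sign was 0.22, against 0.12 over all probes. Limma with the replicate block called 2 of the 17, 1 higher (RUNX1 A_24_P34155) and 1 lower (ZNF683), at a Benjamini-Hochberg adjusted p under 0.05. Of all probes 2.74% were called, 1.85% higher and 0.881% lower, and since the genes were chosen on this contrast nothing is read from the comparison of these shares. The same 2 of 17 were called with siRNA1 (0.941% of all probes) and with siRNA2 (1.64%). Without the block limma called 0 of the 17 (3 had an unadjusted p under 0.05), and 0.00893% of all probes. On the paired differences, 8 of the 17 probes kept 1 sign on all 6 siRNA arrays, 5 higher and 3 lower, and 21.5% of all probes did so. The siRNA and control arrays did not overlap for 2 of the 17 probes, against 3.88% of all probes.

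**Figure D2:**
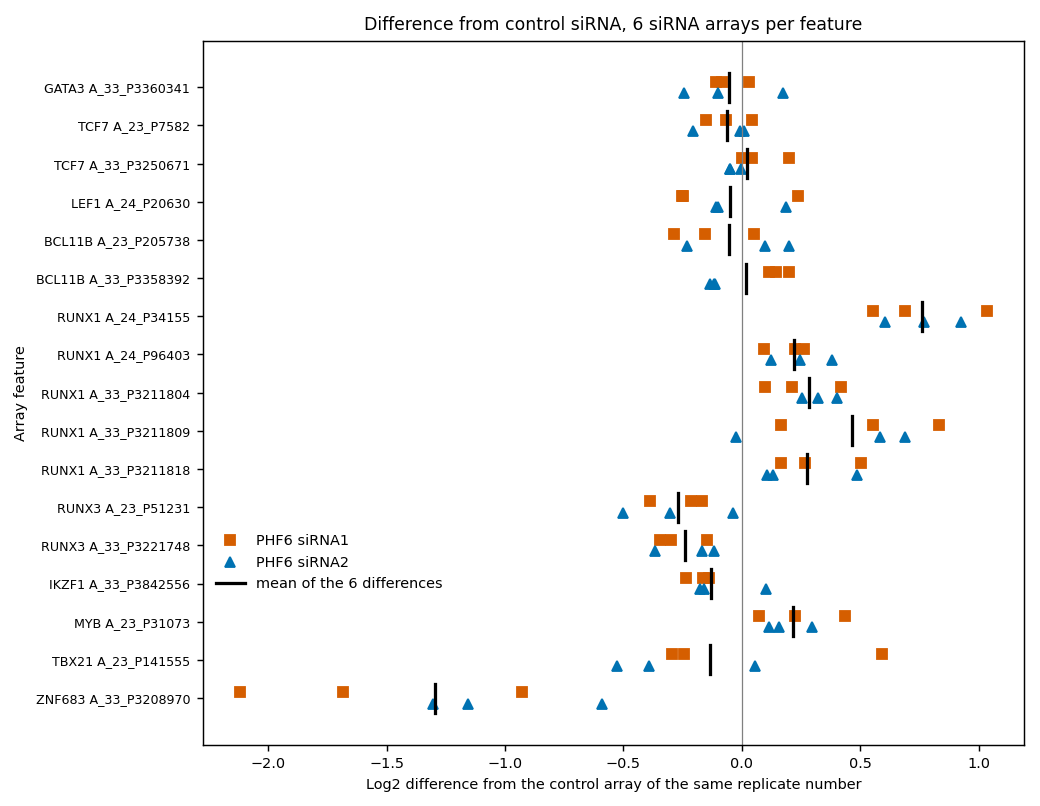
Log2 difference between each siRNA array and its own control array (same replicate number) (horizontal axis), for the 17 probes (vertical axis), with squares for siRNA1, triangles for siRNA2 and a bar for the mean of the 6 differences. The 5 probes of RUNX1 have means from 0.22 to 0.76, both RUNX3 probes lie below 0 on all 6 arrays, and ZNF683 has the lowest mean (-1.30).

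The sequences upstream of the start are given for ZNF683 and RUNX1, whose probes had the lowest and the highest difference, and for RUNX3, the RUNX1 relative whose probes were lower. They are the 250 bases before the start in RefSeq (GRCh38.p14), 5′ to 3′ on the strand of the gene, in lower case with the letters TGTGGT or their complement ACCACA, the core bound by RUNX proteins, in capitals.
ZNF683, chr1:26372795-26373044, minus strand: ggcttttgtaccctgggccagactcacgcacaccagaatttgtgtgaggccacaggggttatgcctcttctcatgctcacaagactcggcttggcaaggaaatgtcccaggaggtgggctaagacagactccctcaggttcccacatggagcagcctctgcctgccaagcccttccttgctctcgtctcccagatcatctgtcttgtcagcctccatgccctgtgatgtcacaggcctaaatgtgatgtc
RUNX1, chr21:34888700-34888949, minus strand: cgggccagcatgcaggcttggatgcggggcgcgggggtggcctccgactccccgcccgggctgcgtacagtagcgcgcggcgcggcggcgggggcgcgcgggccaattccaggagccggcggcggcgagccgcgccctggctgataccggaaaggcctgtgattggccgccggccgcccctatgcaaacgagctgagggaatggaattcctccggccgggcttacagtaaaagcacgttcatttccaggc
RUNX3, chr1:24965011-24965260, minus strand: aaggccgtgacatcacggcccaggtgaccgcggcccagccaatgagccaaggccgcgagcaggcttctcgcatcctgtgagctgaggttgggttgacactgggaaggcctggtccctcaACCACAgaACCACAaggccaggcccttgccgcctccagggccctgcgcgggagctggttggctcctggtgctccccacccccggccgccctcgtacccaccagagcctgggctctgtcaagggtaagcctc
The RUNX3 window shown holds the letters at 2 places, 2 bases apart, whereas the window of its other start and those of ZNF683 and RUNX1 hold none. All 10 genes matched the promoter table, with 20 windows in all because several have more than 1 start. On both strands, TGTGGT was found in 4 of the 20 windows (GATA3, LEF1, RUNX3 and IKZF1) and in 11% of the 35116 windows of all genes. The GATA letters AGATAA were in 1 of 20 (IKZF1, 9.17% of all), the TCF/LEF letters CTTTGA in 1 of 20 (GATA3, 11.2% of all) and the T-box letters AGGTGT in 2 of 20 (GATA3 and LEF1, 9.57% of all). None of these matches overlapped another. A match describes letters in a window and not a bound site, and no binding was measured here.

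RUNX1, which is required for blood stem cells and early thymocytes, had 5 probes, all with a higher mean on the siRNA arrays. In replicates 1, 2 and 3 probe A_24_P34155 was 7.46, 8.05 and 7.58 with control siRNA. With siRNA1 it was 8.15, 9.09 and 8.13, and with siRNA2 8.38, 8.82 and 8.18. Every siRNA array was thus above every control array. The log2 difference was 0.76 with a standard error of 0.11, a 1.70-fold higher level. It was 0.76 with siRNA1 and 0.77 with siRNA2, and by slide it was 0.85 on the first and 0.58 on the other. Limma with the block no longer called this probe without control replicate 1 (difference 0.74) or without control replicate 2 (0.69). The same held without replicate 1 or 2 altogether, with the slide as the block, without the filter on dim probes and with VSN on the background-subtracted signal.

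The other RUNX1 probes moved less. A_33_P3211809 was 7.40, 7.76 and 7.78 with control siRNA, 7.95, 8.60 and 7.95 with siRNA1 and 8.09, 8.35 and 7.76 with siRNA2. Its groups overlapped in replicate 3, where the difference averaged 0.07, compared with 0.62 in replicate 1 and 0.71 in replicate 2. A_24_P96403, A_33_P3211804 and A_33_P3211818 differed by 0.22, 0.29 and 0.28, each higher than its own control on 6 of 6 siRNA arrays, but with groups that overlapped. In the main fit limma with the block called none of these 4 probes. Of 23 alternatives, A_33_P3211809 was called in 4, A_24_P96403 and A_33_P3211804 in 2 each and A_33_P3211818 in 1. These counts include the fit that averaged every probe of a gene.

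The 5 RUNX1 probes split by the transcript to which the array assigns them. A_24_P34155 and A_33_P3211809 are assigned to NM_001122607, the short isoform known as RUNX1a, which keeps the DNA-binding Runt domain but lacks the C-terminal transactivation region. The other 3 probes are assigned to NM_001001890, the longer RUNX1b. Averaged over its 2 probes, the short transcript was higher than its own control by 0.29 to 0.94 (mean 0.62, SD 0.25, n = 6 array pairs). For the 3 probes of the longer transcript the difference was 0.20 to 0.31 (mean 0.26, SD 0.05, n = 6 array pairs). The difference of the short transcript exceeded that of the longer one in 6 of 6 pairs, by 0.35 on average (SD 0.23) and by as little as 0.09 in replicate 3 with siRNA2. In replicate 3 this rested on A_24_P34155, since A_33_P3211809 differed there by 0.16 and -0.02, below the 0.21 and 0.20 of the longer transcript. The probes also differed in brightness. Intensities were 179 to 489 at the short-transcript probes, 1617 to 4248 at 2 longer-transcript probes and 86.5 to 172.5 at A_33_P3211818. Brightness was thus not alike between the transcripts, and its part in the difference was not tested. The 6 pairs share 3 control arrays. The probe sequences were not used here, so which exons each probe reads was not checked.

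**Figure D3:**
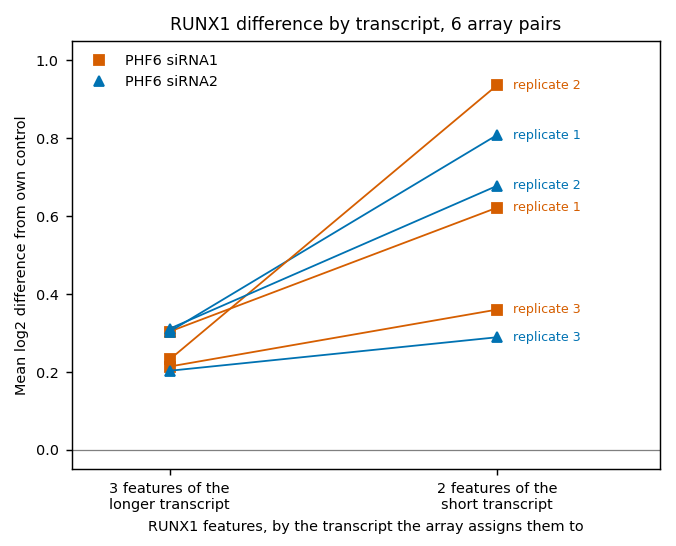
Mean log2 difference of RUNX1 from its own control array (same replicate number) (vertical axis), for the 3 probes assigned to the longer transcript and the 2 probes assigned to the short one (horizontal axis), with a line for each of the 6 siRNA arrays. All 6 lines rise to the right, from 0.20 to 0.31 up to 0.29 to 0.94, least in replicate 3, where only 1 of the 2 short-transcript probes exceeds the longer transcript.

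RUNX3, which silences CD4 and supports the CD8 and cytotoxic lineage, was lower on all 6 siRNA arrays than on the matched control at both of its probes. A_23_P51231 was 12.83, 12.58 and 12.42 with control siRNA, 12.44, 12.41 and 12.20 with siRNA1 and 12.33, 12.54 and 12.11 with siRNA2. Its difference was -0.27 (standard error 0.09) and ranged from -0.50 to -0.04 over the 6 pairs. A_33_P3221748 was 15.03, 14.93 and 14.52 with control siRNA, 14.68, 14.63 and 14.37 with siRNA1 and 14.86, 14.81 and 14.16 with siRNA2, a difference of -0.24 (standard error 0.09). The control and siRNA arrays overlapped at both probes, and limma with the block called neither. RUNX3 and RUNX1 thus had differences of opposite sign at every one of their probes, while the third family member RUNX2 was well above background on 4 arrays and differed by 0.19 (adjusted p = 0.468 from limma).

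ZNF683, which encodes Hobit, the homologue of Blimp-1 in lymphocytes, had the largest difference among the 17 probes. In replicates 1, 2 and 3 probe A_33_P3208970 was 8.02, 8.67 and 7.73 with control siRNA. With siRNA1 it was 7.09, 6.55 and 6.04, and with siRNA2 7.43, 7.51 and 6.43. All 6 siRNA arrays lay below all 3 control arrays. The log2 difference was -1.30 with a standard error of 0.17, a 2.46-fold lower level, and it was -1.58 with siRNA1 and -1.02 with siRNA2. It varied with the replicate number, from -0.76 in replicate 1 to -1.64 in replicate 2 and -1.49 in replicate 3. Without control replicate 2, or without replicate 2 altogether, limma with the block did not call it, at a difference of -1.13. PRDM1 (Blimp-1), its paralogue, was dim and differed by 0.09 (adjusted p = 0.717 from limma).

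TBX21 (T-bet), the other factor of the cytotoxic program, had a dim probe, with intensities of 45 to 81.5. A_23_P141555 was 6.17, 5.39 and 5.54 with control siRNA, 5.87, 5.98 and 5.30 with siRNA1 and 5.64, 4.999 and 5.60 with siRNA2. The groups overlapped and the difference of -0.14 (standard error 0.18) was smaller than the spread between replicates. Its sign turned in 2 of 23 alternative analyses. EOMES, its paralogue, differed by -0.02 (adjusted p = 0.936 from limma).

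The factors of T cell commitment differed little from control. GATA3 (A_33_P3360341) was 12.79, 13.56 and 12.62 with control siRNA, 12.70, 13.45 and 12.65 with siRNA1 and 12.69, 13.32 and 12.80 with siRNA2. Its replicate 2 was highest in every group, and the difference was -0.06 with a 95% confidence interval from -0.26 to 0.15. TCF7 had 2 probes, and A_23_P7582 was 13.52, 13.98 and 13.84 with control siRNA, 13.37, 13.92 and 13.89 with siRNA1 and 13.31, 13.99 and 13.84 with siRNA2. The TCF7 differences were -0.06 (-0.25 to 0.13) at this probe and 0.02 (-0.16 to 0.21) at A_33_P3250671. LEF1 (A_24_P20630) was 15.55, 16.46 and 16.34 with control siRNA, 15.30, 16.69 and 16.09 with siRNA1 and 15.73, 16.35 and 16.23 with siRNA2. LEF1 had the widest spread between replicate numbers of the 17 probes (0.97) and a difference of -0.05 (-0.32 to 0.23). The widest of these intervals, that of LEF1, leaves room for a fall of 0.32. The sign of the GATA3, TCF7 and LEF1 differences turned in some alternative analyses, for LEF1 in 7 of 23.

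BCL11B, a tumor suppressor in T-ALL that fixes the T cell identity, also had 2 probes. A_23_P205738 was 13.70, 13.83 and 13.27 with control siRNA, 13.54, 13.54 and 13.32 with siRNA1 and 13.80, 13.60 and 13.47 with siRNA2, with a difference of -0.05 (-0.27 to 0.16) for both siRNAs. A_33_P3358392 was 8.93, 9.24 and 8.94 with control siRNA, 9.13, 9.39 and 9.05 with siRNA1 and 8.81, 9.13 and 8.81 with siRNA2. At this second probe all 3 siRNA1 arrays were above and all 3 siRNA2 arrays below their own control, and the difference for both siRNAs was 0.02 (-0.16 to 0.19). The probes therefore disagree on how BCL11B differed between the siRNAs.

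IKZF1 and MYB, both already active in blood progenitors, differed modestly in opposite directions. IKZF1 (A_33_P3842556) was lower than its own control on 5 of 6 siRNA arrays, with a difference of -0.13 (standard error 0.09), and its groups overlapped. MYB (A_23_P31073) was 15.71, 16.45 and 16.09 with control siRNA, 16.15, 16.52 and 16.32 with siRNA1 and 15.87, 16.57 and 16.39 with siRNA2. MYB was higher than its own control on 6 of 6 siRNA arrays, by 0.22 (standard error 0.09), while its replicate numbers spanned 0.61. Limma with the block called neither probe. With normexp background correction and quantile normalization it called MYB, at a difference of 0.37.

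**Figure D4:**
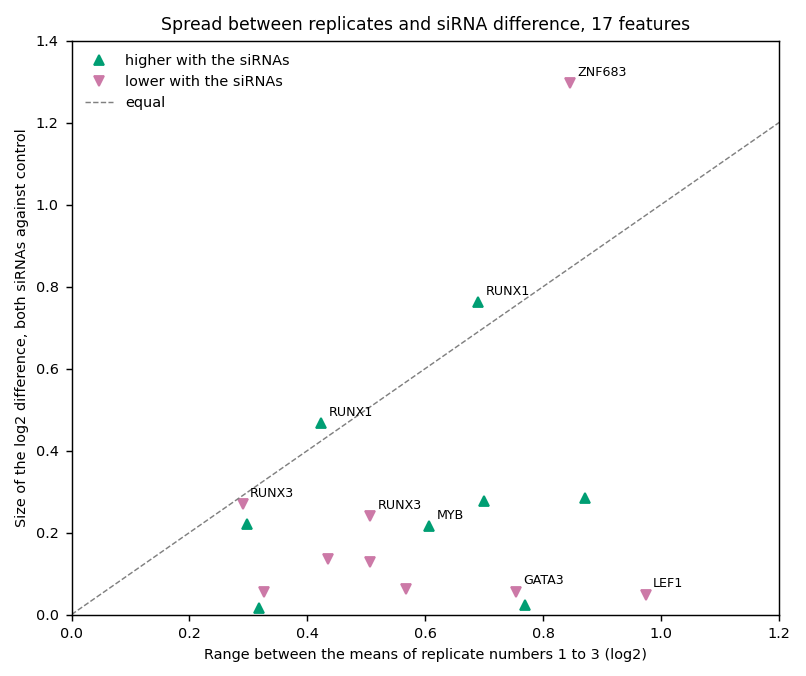
Size of the log2 difference between both siRNAs and control (vertical axis) against the range between the means of replicate numbers 1 to 3 (horizontal axis), with 1 point for each of the 17 probes and a dashed line where both are equal. The points of ZNF683 and of 2 RUNX1 probes lie above the line, and LEF1 has the widest replicate range (0.97).

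The siRNAs were also compared with each other, a difference in which the control arrays have no part. The siRNA arrays also helped to choose the genes, so this comparison is not free of that choice. Limma with the block called 0 of the 17 probes between siRNA2 and siRNA1 (lowest adjusted p = 0.418), where 0.0387% of all probes were called, and 2 of the 17 had an unadjusted p under 0.05, as did 9.67% of all probes. These were the second BCL11B probe A_33_P3358392, lower with siRNA2 by 0.27 (95% confidence interval of the difference -0.48 to -0.07, adjusted p = 0.418), and ZNF683. ZNF683 was higher with siRNA2 than with siRNA1 in each replicate number, by 0.56 (0.13 to 0.99, adjusted p = 0.428 from limma). For RUNX1 A_24_P34155 the siRNAs differed by 0.01 (-0.27 to 0.28). The siRNA2 minus siRNA1 difference of PHF6 was -0.19 (-0.43 to 0.05, adjusted p = 0.583 from limma). A p that misses the threshold does not show that the siRNAs act alike. The median size of the difference between the siRNAs was 0.08 over the 17 probes, compared with 0.11 over all probes.

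Genes that work with the factors were examined next, from lists chosen with earlier results of these arrays known, with the brightest probe for each gene. Of 14681 genes, limma with the block called 1.15% higher and 1.21% lower, with a median difference of -0.04. It called none of the 6 E proteins and ID inhibitors measured (median -0.03), none of the 11 cofactors and corepressors (-0.08), none of the 11 paralogues (-0.01) and none of the 20 other thymocyte transcription factors (0.02). At an unadjusted p under 0.05 there were 1, 4, 1 and 5 genes in these lists, in the same order, and 19.1% of all genes. CBFB, the DNA-binding partner of RUNX1 and RUNX3, differed by -0.13 (adjusted p = 0.419), lower than its own control on 6 of 6 arrays. ID3, an inhibitor of E proteins, differed by -0.33 (adjusted p = 0.0747) and LYL1, a basic helix-loop-helix factor of early progenitors, by -0.38 (adjusted p = 0.0978). TLE2, a Groucho corepressor like TLE1, was dim (well above background on 6 arrays) and differed by 0.56 (adjusted p = 0.0959), higher on 6 of 6 siRNA arrays. TLE1, a Groucho corepressor of TCF7, LEF1 and RUNX proteins, had 2 probes that disagreed. The dimmer one (A_23_P135239) was called higher by 0.65 (adjusted p = 0.0349), while the brighter one (A_33_P3217719) differed by -0.23 (adjusted p = 0.415).

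Among genes that the factors are known to control, limma with the block called 2 of 22 T cell genes, both lower, and 3 of 11 cytotoxic effector genes measured, all lower. Of all 14681 genes it called 1.15% higher and 1.21% lower. At an unadjusted p under 0.05 there were 7 of the 22 and 6 of the 11, and 19.1% of all genes. These lists too were chosen with earlier results known, so nothing is read from the comparison of these shares. The T cell genes called were CD28, the costimulatory receptor, which fell by 0.54 (adjusted p = 0.0314), and PTCRA, the pre-T cell receptor chain, which fell by 0.73 (adjusted p = 0.0084). Both probes of CD28 were called. The median of this list was -0.08, with 7 genes higher and 15 lower. CD3D (-0.10), CD3G (-0.14), LCK (-0.09) and CD4 (-0.30) did not pass, nor did CD8A (-0.29, adjusted p = 0.0945). RAG1, the recombinase of antigen receptor genes, had a positive difference of 0.70 (adjusted p = 0.0542), higher than its own control on 6 of 6 siRNA arrays. CD7, an early T cell surface protein on the T-ALL marker list, fell by 0.76 (adjusted p = 0.0124). On that list 3 of 10 genes were higher and 7 lower, with a median of -0.09 and 2 called (CD7 and PTCRA), and the cortical thymocyte marker CD1A differed by 0.71 (adjusted p = 0.0731).

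The cytotoxic effector genes had a median of -0.26, with 3 of 11 higher and 8 lower. The list held 20 genes, all on the array, and only these 11 passed the filter on dim probes. CXCR3, the chemokine receptor that T-bet induces in effector T cells, measured 8.61 ± 0.70 (SD, n = 3) in control samples, 7.17 ± 0.87 (SD, n = 3) after siRNA1 and 7.50 ± 0.89 (SD, n = 3) after siRNA2. It fell by 1.28 (adjusted p = 7.3e-04 from limma), the largest difference on these lists among genes called, but its other probe A_33_P3389230 differed by -0.27 (adjusted p = 0.135). GNLY (granulysin) fell by 0.56 (adjusted p = 0.0244) and NKG7, a protein of cytotoxic granules, by 0.43 (adjusted p = 0.0305), each lower than its own control on 6 of 6 arrays. GZMB, granzyme B, differed by -0.33 (adjusted p = 0.0559) and IL2RB by -0.43 (adjusted p = 0.0764), whereas GZMH, CX3CR1 and CCL4 were higher on average without passing. GZMH measured 5.11 ± 0.10 (SD, n = 3) in control samples, 6.97 ± 3.19 after siRNA1 and 5.21 ± 0.08 after siRNA2. Its average thus rests on the siRNA1 samples, which spread widely. CX3CR1 also spread widely after siRNA1 (SD 1.27, against 0.19 in control samples), but was higher than its own control on 6 of 6 arrays. NK cells also express cytotoxic genes, and 3 of the 6 NK cell markers on the array were well above background on all 9 arrays and 3 (FCGR3A, NCAM1 and KLRF1) on none. The summed intensity of the NK cell markers, before normalization, was 225 to 312 with control siRNA, 232 to 316 with siRNA1 and 210.0 to 318 with siRNA2. These sums include background, which was not subtracted, and negative control spots alone had medians of 23 to 27.5 per array. They therefore say little about the share of NK cells. Of the B cell markers, CD79B fell by 0.48 (adjusted p = 0.0417), and its part in the result was not tested. The number of genes called over the lists of cofactors, relatives and targets, 5 in all, was 0 without replicate 2, 1 without replicate 1 and 1 without control replicate 2. Without the replicate block it called 0 of the listed genes, with 11 at an unadjusted p under 0.05.

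**Figure D5:**
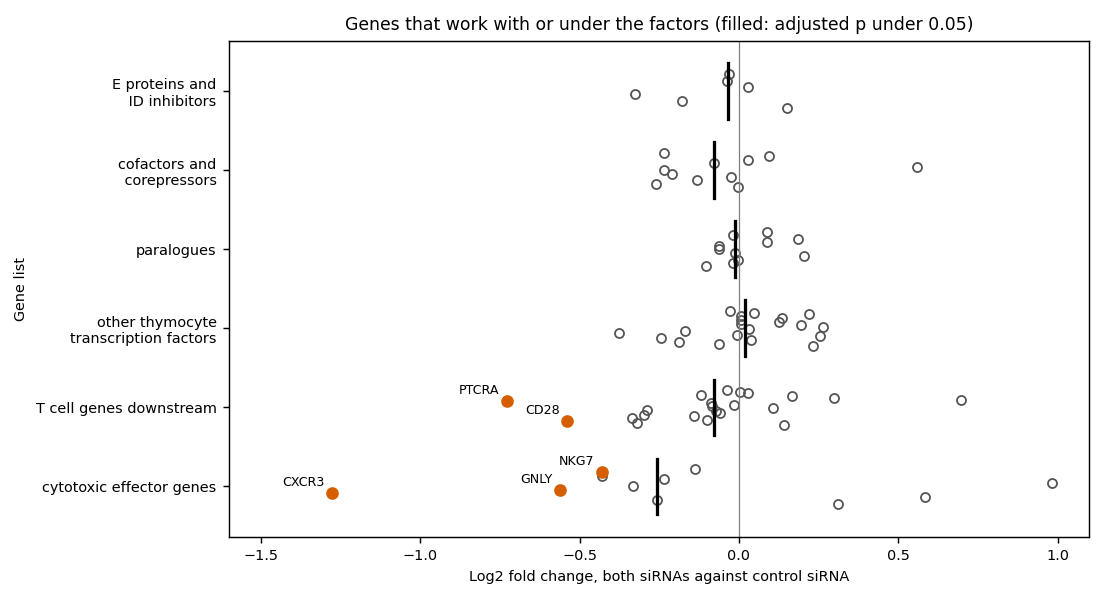
Log2 fold change of both siRNAs against control siRNA (horizontal axis) for each measured gene of 6 lists of cofactors, related factors and known targets (vertical axis), with filled points for an adjusted p under 0.05 and a bar at the median of each list. The called genes are CD28 and PTCRA among T cell genes and CXCR3, GNLY and NKG7 among cytotoxic effector genes, all to the left of 0.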

How the data were processed

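RNA of 9 ALL-SIL samples was hybridized to one-colour Agilent arrays. The authors deposited the fluorescence intensity of each spot from Feature Extraction (10.5.1.1 per the file headers, 9.1 in the submitters' processing notes), their deposited flags of other kinds (outlier, saturated, well above background), and a table of log2 values normalized with VSN. Here the median intensity without background subtraction was normalized by the model of VSN, fitted by code written here (quantile 0.9, 7 iterations) because the package was not installed. Outlier spots were dropped, and the spots of one probe were averaged. Probes well above background on at least 3 of 9 arrays (33595 of 57176) were tested. Transcript identifiers were matched to RefSeq for names only (25728 probes). The comparisons were run on all 9 arrays with limma 3.58.1 (R 4.3.3), with the replicate number as a block, since samples of the same number deviated together (the study's methods name limma for the arrays without a pairing), and Benjamini-Hochberg adjustment over all tested probes with a threshold of 0.05. Deviations of samples from their group means correlated across probes at 0.31 to 0.74 in 9 pairs with the same number, and at -0.57 to 0.13 in 18 pairs with different numbers. Because deviations cancel out within a group, positive values in the same-number pairs push the others towards negative values. The negative values are therefore no separate evidence. The fit was tested on simulated data.

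The genes and lists were chosen with earlier results of these data known. Named genes were all probes of the 10 factors, PHF6, and up to 5 genes called on each list, and the other genes were named after their values were seen. Alternatives were VSN on the processed signal, scaling to the 75th percentile, normexp (offset 50) with quantile normalization, the deposited table, keeping dim probes or requiring detection on all 9 arrays, keeping outlier spots, no block or the slide as block, a trended robust prior variance, only the groups compared, averaging every probe of a gene, and leaving out each replicate number and each array. Depth has no counterpart on arrays, whose number limits the precision.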

Additional observations from a re-analysis of the deposited data

How the results depend on the processing

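Of 391 log2 differences recomputed for the 17 probes under 23 alternatives, 388 moved by less than the spread between the paired differences, 3 moved by more, and no called value changed sign. The number of the 17 probes called for both siRNAs against control, 2 in the report, was 1 with VSN on processed intensities, 5 with normexp and quantile normalization, 1 without the filter on dim probes and 1 with the slide as the block. It ranged from 0 to 3 when single replicates or arrays were left out, and was 0 without replicate 2 and 0 without control replicate 2. For siRNA1 alone the count was 0 with VSN on processed intensities, 0 after 75th percentile scaling, 1 without the filter, 1 with the slide as the block, 1 with only the groups compared and 1 with every probe of a gene averaged, and 0 to 3 over the arrays left out. For siRNA2 alone it was 0 with VSN on processed intensities, 0 after 75th percentile scaling, 0 without the filter, 0 with the slide as the block, 1 with every probe of a gene averaged, and 0 to 2 over the arrays left out. ZNF683 was called in 20 of 23 alternatives and RUNX1 A_24_P34155 in 15 of 23. Between the siRNAs 0 probes were called in 24 of 24. PHF6 was called in 23 of 23, at differences of -1.82 to -1.61.

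Without the replicate block, 0 of the 17 probes were called for both siRNAs, 0 for siRNA1 and 0 for siRNA2, and 0 genes of the lists. The count of called genes on the lists, 5 in the report, was 2 with VSN on processed intensities, 2 after 75th percentile scaling, 2 without the filter, 8 with the filter on all arrays, 0 with the slide as the block, 10 with the trended robust prior and 8 with every probe of a gene averaged, and 0 to 6 over the arrays left out. The fit with fewer samples or without the block has a larger residual spread or fewer degrees of freedom, and the cause of the other changes was not tested.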
